A study of Mus musculus with 6 samples.

Results

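The Krüppel-like factors (KLF) are zinc finger transcription factors, and the genes described here are KLF2, KLF3, KLF4, KLF5, KLF6, KLF7, KLF9, KLF10, KLF11 and KLF13 in PA6 cells. They were taken by name: every probe of the deposited table that carried 1 of these symbols was used, which gave 16 probes for 10 genes, of 45281 probes and 30854 gene names on the array. PA6 cells are mouse stromal cells, used as a feeder layer for embryonic stem (ES) cells and able to turn into adipocytes. Confluent monolayers, with no ES cells added, were kept for 3 h in serum-free medium in 3 ways: with no factor added (-GFs), with recombinant FGF2 at 20 ng/ml, or with recombinant BMP4 at 10 ng/ml. Each group had 2 replicates and each replicate consisted of 1 well of every kind, so that 6 Illumina MouseWG-6 arrays were hybridised and wells can be paired by replicate number. The series asked which genes the stroma itself switches at once in response to the factors, apart from the signals of the ES cells.

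KLF proteins carry a row of zinc fingers at their carboxyl end, with which they bind CACCC boxes and GC-rich DNA, and differ in the rest of the protein, which recruits coactivators or corepressors. KLF2, KLF4, KLF5, KLF6 and KLF7 are known mostly as activators that recruit acetyltransferases, KLF3 as a repressor that binds CTBP, and KLF9, KLF10, KLF11 and KLF13 as factors that bind SIN3A. Several are early response genes of growth factors, and in stromal and preadipose cells the family is known for setting the balance between keeping the undifferentiated state and becoming an adipocyte.

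Of the 10 genes, 7 had a probe detected (p under 0.05 for signal over background) in 1 group or more on both of its arrays: KLF2, KLF3, KLF4, KLF6, KLF7, KLF9 and KLF13, with 12 of the 16 probes. KLF5, a promoter of adipocyte differentiation, was undetected by both of its probes on all 6 arrays, with intensities from 117.1 to 172.7. KLF11, which is known as a TGFβ-inducible gene, was undetected on all 6 arrays as well (108.7 to 155.5). KLF10, the other TGFβ-inducible member, lay between 152.8 and 204.3 and passed the detection limit only on the array of FGF2 replicate 2, at 204.3 (detection p 0.02885). These 3 genes were not tested, and they lay near the median intensity of a whole array, which was 153.4 to 168.1. Intensities here are scanner brightness in arbitrary units, and because probes differ in how well they bind, the level of 1 probe is not set against that of another.

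The arrays detected 15509 to 16459 probes each, and 11872 genes entered the tests. The labelled cell type was borne out by its markers: all 10 stromal genes on the list, such as COL1A1, PDGFRA and CXCL12, were detected on all 6 arrays, at intensities of 983.5 to 38062.9. PTPRC of blood cells, PECAM1 and CDH5 of endothelium, NANOG and SOX2 of ES cells and EPCAM of epithelium were undetected on all 6 arrays. Other genes of these lists were detected: CD14 of the haematopoietic list on all 6 arrays, at up to 2300.8, and at lower intensity TEK (all 6 arrays, up to 353.6) and KDR (4 arrays) of the endothelial, POU5F1 (all 6, up to 248.4) and DPPA5A (3 arrays) of the ES cell, and CDH1 (all 6, up to 236.9) of the epithelial list. In such bulk RNA, fewer cells of a type and less RNA per cell cannot be told apart.

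The 250 bases before the start of the gene, as annotated by RefSeq on the mouse build GRCm38.p6, are shown for the 4 members whose treatment differences are described at most length. Windows were found for 8 of the 10 members, all but KLF5 and KLF10. The lines read 5′ to 3′ along the gene's own strand and end at the base before the annotated start. Capitals mark the letters of 3 known motifs on either strand: the EGR site GCGNGGGCG in KLF2, KLF4 and KLF3, the MEF2 site in KLF2 and the AP-1 site TGANTCA in KLF9.
KLF2, chr8:72318812-72319061, + strand: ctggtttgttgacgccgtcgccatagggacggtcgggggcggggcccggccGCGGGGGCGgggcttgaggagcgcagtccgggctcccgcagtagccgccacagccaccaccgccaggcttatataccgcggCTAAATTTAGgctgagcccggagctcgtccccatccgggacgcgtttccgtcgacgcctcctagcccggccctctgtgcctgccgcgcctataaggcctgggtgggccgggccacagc
KLF4, chr4:55532476-55532725, - strand: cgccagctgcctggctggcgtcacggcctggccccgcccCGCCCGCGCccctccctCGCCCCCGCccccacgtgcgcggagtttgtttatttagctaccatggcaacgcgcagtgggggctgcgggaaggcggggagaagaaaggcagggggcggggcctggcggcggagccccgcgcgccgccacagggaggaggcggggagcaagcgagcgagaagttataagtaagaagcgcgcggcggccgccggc
KLF9, chr19:23140976-23141225, + strand: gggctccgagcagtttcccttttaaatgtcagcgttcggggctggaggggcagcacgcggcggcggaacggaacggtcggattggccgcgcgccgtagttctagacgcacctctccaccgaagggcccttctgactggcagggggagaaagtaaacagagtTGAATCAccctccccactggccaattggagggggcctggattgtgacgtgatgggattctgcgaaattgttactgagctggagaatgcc
KLF3, chr5:64803271-64803520, + strand: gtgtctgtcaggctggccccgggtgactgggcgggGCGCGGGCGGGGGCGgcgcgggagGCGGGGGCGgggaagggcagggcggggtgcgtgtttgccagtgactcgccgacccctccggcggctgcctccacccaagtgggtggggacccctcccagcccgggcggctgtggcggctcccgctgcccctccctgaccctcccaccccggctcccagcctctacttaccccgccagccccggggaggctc

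The EGR letters stood 199 to 191 bases before the start of KLF2, at 211 to 203 and 194 to 186 before KLF4, and at 3 places, the first pair of which overlap, before KLF3. They were in 3 of the 8 member windows and in 4.7% of 32851 windows of the same length, and in each of the 3 genes they overlapped the GC box GGGCGG. That GC box was in 7 of 8 members and in 32.7% of all windows. The MEF2 letters, 118 to 109 bases before KLF2, were in 1 member and in 2.92% of all windows. MEF2 factors are known to drive KLF2 at the end of the MEK5-ERK5 kinase cascade. The AP-1-like letters of KLF9 stood 89 to 83 bases before its start and overlapped a CACCC box by 2 letters. The pattern, with any base in the middle, was in 1 member and 6.75% of windows. The CACCC box, the letters that KLF proteins themselves bind, was in 5 of 8 members and 52% of windows, and KLF4 held none. No member window held the cAMP response element TGACGTCA (1.55% of windows), the ETS site CCGGAA (12%), the CArG box (1.47%) or the TATA box TATAAA (12.4%). G and C made up 71.2%, 74% and 78.4% of the KLF2, KLF4 and KLF3 windows, and 59.6% of the KLF9 window. The shares of all windows were not matched for this. KLF2, KLF4 and KLF3 hold the EGR letters alike, and matching letters are a description of the window only.

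With FGF2, KLF2 was the member that rose past the threshold, by 1.25 on the log2 scale. The other tested members did not pass: the difference was 0.83 for KLF4, 0.45 for KLF9, 0.42 for KLF6, 0.08 for KLF7, -0.09 for KLF13 and -0.49 for KLF3. A gene was called when its absolute log2 fold change was over 1 and its adjusted p under 0.1 in limma, fitted over all 11872 genes with Benjamini-Hochberg adjustment. By this rule 1 of the 7 tested members was called with FGF2, against 3.53% of all genes, none was called with BMP4, against 0.00842%, and 2 were called between FGF2 and BMP4, against 3.07%. The comparisons share arrays: both factors were set against the same 2 -GFs wells. The smallest two-sided p that an exact permutation test of 2 wells against 2 allows is 0.333, so the tests below rest on the spread that limma estimates across all genes.

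KLF2 is known from endothelium, where it is switched on by laminar flow and induces THBD, and from preadipocytes, where it holds back differentiation. Its intensity as deposited was 2554.1 and 1696.3 in the -GFs wells (replicates 1 and 2), 4508.7 and 4882 with FGF2, and 1705.6 and 1849 with BMP4. On the log2 scale after normalisation these were 11.14 and 10.80, 12.16 and 12.28, and 10.87 and 10.80. Both FGF2 wells stood above all the other wells, and the BMP4 wells fell inside or at the lower end of the -GFs values.

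KLF2 rose by 1.25 (SE 0.168) on the log2 scale with FGF2, which is 2.38-fold with a 95% interval of 1.80 to 3.14 (limma adjusted p = 0.0132). Within the pairs of wells it was higher by 1.02 in replicate 1 and by 1.48 in replicate 2. Against BMP4 the FGF2 wells were higher by 1.38 (SE 0.168), or 2.61-fold (limma adjusted p = 0.0106). The call is lost when the array of FGF2 replicate 2 is left out, with the rise at 1.18 and an adjusted p of 0.136 by limma, and for the comparison with BMP4 at 1.31 and 0.125, where the lone FGF2 array is assumed to vary like the other groups.

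KLF4, a pluripotency factor that in fibroblasts and smooth muscle answers to serum and growth factors, was measured by 3 probes. The brightest of them read 474.8 and 289.1 in the -GFs wells, 833.3 and 448.7 with FGF2, and 276.7 and 258.4 with BMP4. The log2 normalised values were 8.69 and 8.25, 9.71 and 8.90, and 8.17 and 8.0. After normalisation the FGF2 wells were on top, the -GFs wells between, and the BMP4 wells lowest. As deposited, FGF2 replicate 2 (448.7) lay below -GFs replicate 1 (474.8), so these groups overlapped.

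The difference of 0.83 (SE 0.287) between FGF2 and -GFs, or 1.78-fold, stayed short of the threshold (limma adjusted p = 0.142), and leaving out 1 array moved it between 0.42 (without FGF2 replicate 1) and 1.23 (without FGF2 replicate 2). Between FGF2 and BMP4 KLF4 was called, at 1.22 (SE 0.287) or 2.32-fold with a 95% interval of 1.45 to 3.73 (limma adjusted p = 0.0662). That call is a narrow one: leaving out FGF2 replicate 1 gave 0.81 (adjusted p = 0.269 by limma), leaving out FGF2 replicate 2 gave 1.62 (0.105), and without BMP4 replicate 1 or 2 it was 1.30 (0.170) or 1.13 (0.226). Scaling the arrays to a common median gave 1.18 (0.114), and the mean of the 3 probes gave 0.93 (0.0706), under the fold threshold.

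The second KLF4 probe read 234 and 199.6 in the -GFs wells, 480.8 and 280.5 with FGF2, and 196.9 and 194 with BMP4, a difference of 0.82 (SE 0.237) on the log2 scale between FGF2 and -GFs. The third read 217.4 and 181.4, 275.6 and 211.7, and 154.1 and 151.5 in the same order, and differed by 0.32 (SE 0.176). As deposited, both FGF2 wells exceeded all others on the second probe, while on the third FGF2 replicate 2 lay below -GFs replicate 1. After normalisation the FGF2 wells were the highest on both. The third probe was detected on both arrays of the FGF2 group alone, through which it passed the filter, and on neither array of the BMP4 group, so its direction adds no support of its own. Against BMP4 the FGF2 wells were higher by 0.93 on the second probe, with a limma adjusted p of 0.0844 over all probes tested.

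KLF6, an immediate early activator known for regulating CDKN1A and, in preadipocytes, for repressing DLK1, varied more between wells of 1 kind than between treatments. It read 3914.3 and 1466.1 in the -GFs wells, 3754.2 and 2466.2 with FGF2, and 2550.7 and 2170.5 with BMP4. As deposited, the -GFs wells were the highest and the lowest of all, so that every group overlapped theirs. The log2 difference with FGF2 was 0.42 (SE 0.396; limma adjusted p = 0.577), and it came to -0.16 when -GFs replicate 2 was left out. The second KLF6 probe, at 241.9 to 390.8 on the 6 arrays, differed by 0.06 (SE 0.199) with FGF2.

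KLF7, which is known for holding back adipocyte differentiation and for axon growth, read 2060.7 and 1089.6 in the -GFs wells, 1749.6 and 1264 with FGF2, and 1823.7 and 1307.7 with BMP4. The groups overlapped entirely, with replicate 1 above replicate 2 in each. Its 3 probes differed by 0.08, -0.07 and 0.07 on the log2 scale between FGF2 and -GFs, and the 95% interval of the first ran from -0.63 to 0.79.

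KLF3, the CTBP-binding repressor, read 521.3 and 290.7 in the -GFs wells, 307.7 and 222.1 with FGF2, and 360.2 and 232.7 with BMP4. In each replicate the -GFs well was the highest, while the groups as a whole overlapped. The log2 difference was -0.49 (SE 0.306) with FGF2 and -0.35 (SE 0.306) with BMP4, with limma adjusted p of 0.388 and 0.999. The difference with FGF2 came to -0.21 without -GFs replicate 1, -0.77 without -GFs replicate 2 and -0.27 without FGF2 replicate 2.

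KLF9, a member of the SIN3A-binding group that is induced by glucocorticoid and thyroid hormone in many cells, read 4886.1 and 2535.4 in the -GFs wells, 4935.1 and 4246.8 with FGF2, and 2979.4 and 2220.5 with BMP4. Within each replicate the order was the same, FGF2 above -GFs above BMP4, although across replicates the FGF2 and -GFs wells overlapped. The log2 difference was 0.45 (SE 0.303) between FGF2 and -GFs and 0.80 (SE 0.303) between FGF2 and BMP4, with limma adjusted p of 0.426 and 0.190. The first of these came to 0.08 without -GFs replicate 2 and 0.82 without -GFs replicate 1. A further probe listed under a RIKEN clone name, which RefSeq gives as an older name of this gene, read 576.4 and 320.4, 594 and 609.7, and 422.7 and 308.6 in the same order of groups. Both FGF2 wells were the highest on that probe, and it differed by 0.58 (SE 0.251; limma adjusted p = 0.223) between FGF2 and -GFs and by 0.74 (adjusted p = 0.157) between FGF2 and BMP4.

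KLF13, the other detected member of the SIN3A-binding group, known as a factor for the chemokine gene CCL5 in lymphocytes, read 3458.6 and 4069.5 in the -GFs wells, 3094.4 and 3525.3 with FGF2, and 2953.6 and 3127.2 with BMP4. After normalisation the groups overlapped, and it differed by -0.09 (SE 0.196) with FGF2 and by -0.19 (SE 0.196) with BMP4. The probe under its older RIKEN clone name differed by -0.10 and 0.02. The probe under TIEG, an older name of KLF10, was undetected on all 6 arrays.

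**Figure D1:**
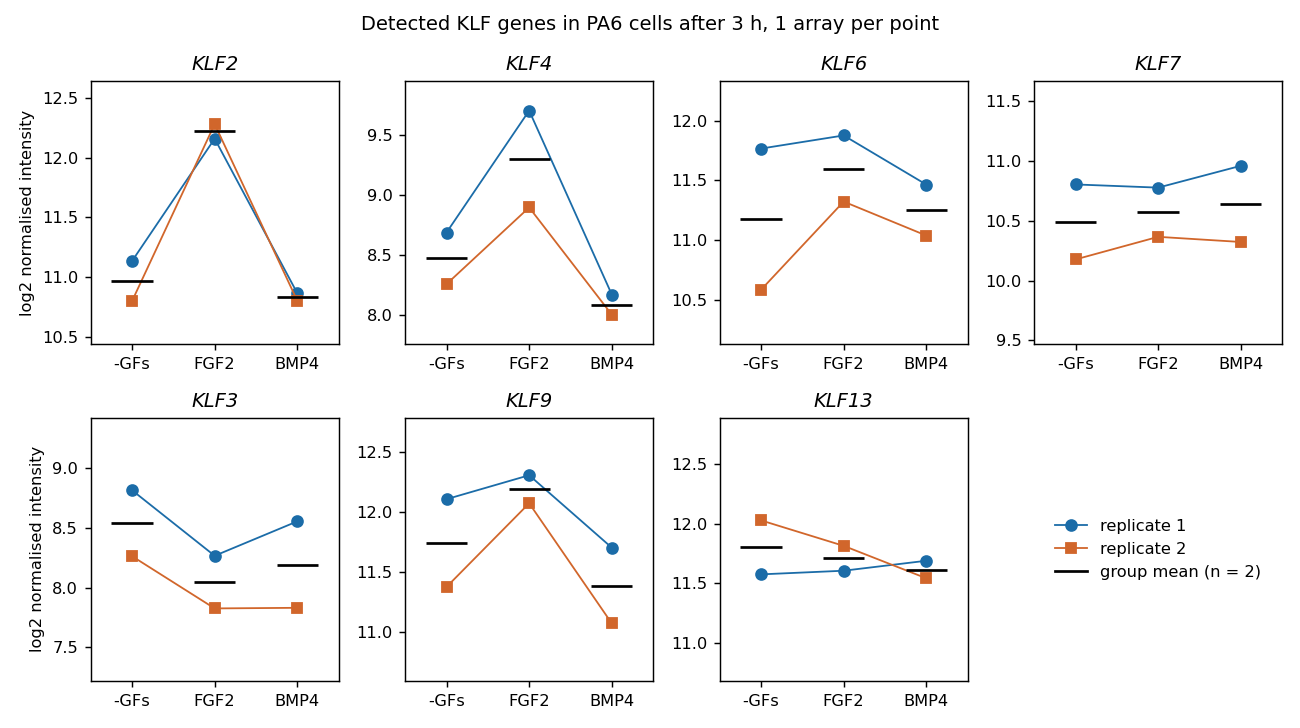
Log2 normalised intensity (vertical axis) of the 7 detected KLF genes by group (horizontal axis), 1 array per point, with the wells of 1 replicate joined and the mean of 2 arrays as a black bar; all panels span the same range of log2 units. For KLF2 both FGF2 wells, at 12.16 and 12.28, lie above the other 4, while for KLF3, KLF4, KLF6, KLF7 and KLF9 the line of replicate 2 runs below that of replicate 1.

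The line of replicate 2 below that of replicate 1 was a feature of most members. With a term for the replicate number in limma, 5 of 7 members differed between the replicates at an adjusted p under 0.1, against 28.8% of all genes. All 5 were lower in replicate 2, as were 1901 of the 11872 genes. The size was -0.72 on the log2 scale for KLF6, -0.57 for KLF3, -0.56 for KLF7, -0.53 for KLF9 and -0.47 for KLF4, and the median of the 7 members was -0.53 against 0.02 over all genes tested. For KLF2 it was -0.09 (limma adjusted p = 0.631) and for KLF13 0.17 (0.362). KLF4 and KLF6 passed on their brightest probe alone. The other KLF4 probes differed by -0.30 and -0.21 between the replicates (limma adjusted p = 0.111 and 0.219 over all probes tested). The second KLF6 probe differed by -0.11 (0.610). The comparison of the replicates was added after the values of the arrays had been seen.

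Of the 5 adipocyte markers on the list, ADIPOQ and CFD differed most between the replicates. ADIPOQ, an adipocyte hormone, read 148.7 to 157.8 in the 3 wells of replicate 1, where it was undetected, and 1658.1 to 2453.5 in the 3 wells of replicate 2. CFD went from 146.6 to 193.9 up to 422 to 659.6, whereas FABP4 was undetected on all 6 arrays. LEP showed no such shift, at 194 to 244.4 in replicate 1 and 207.6 to 259.7 in replicate 2. PLIN1 read 141 to 172.8 in replicate 1, undetected, and 182.8 to 241.9 in replicate 2, where 2 of the 3 arrays detected it. Over these 5 genes the summed intensity was 751.9 to 858.4 in replicate 1 and 2643.8 to 3681.2 in replicate 2, most of it ADIPOQ. Their part in the lower KLF values of replicate 2 was not tested.

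**Figure D2:**
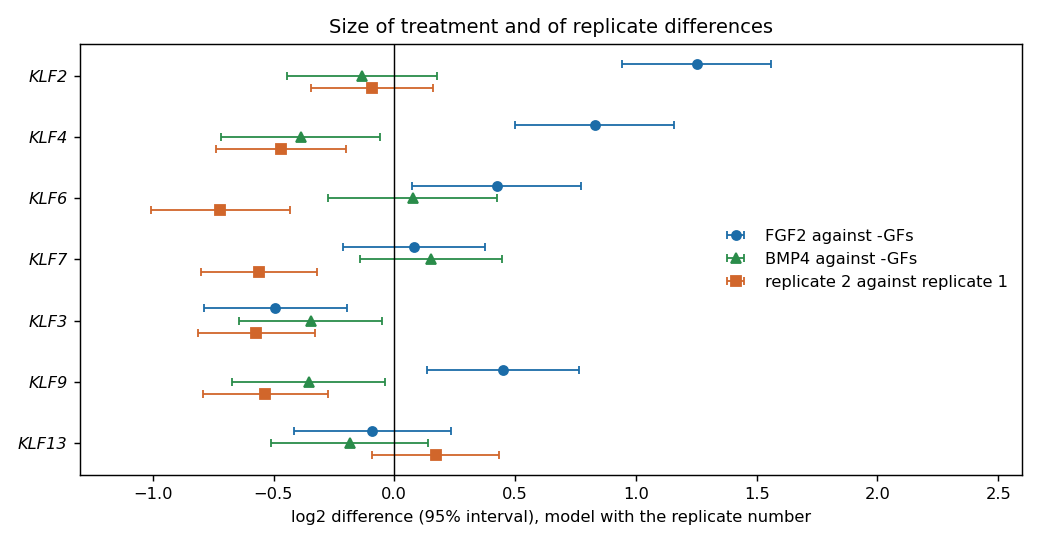
Log2 differences with 95% intervals (horizontal axis) for the 7 detected KLF genes (vertical axis) in the fit that includes the replicate number: FGF2 against -GFs (circles), BMP4 against -GFs (triangles) and replicate 2 against replicate 1 (squares). For KLF6, KLF3, KLF7 and KLF9 the replicate difference, at -0.72, -0.57, -0.56 and -0.53, is further from 0 than either treatment difference. For KLF2 the FGF2 difference of 1.25 is the only one whose interval lies apart from 0. Each gene is drawn by its brightest probe. The second KLF6 probe differed by -0.11 between the replicates, and the other KLF4 probes by -0.30 and -0.21.

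Because the labels describe each replicate as 1 well of every kind, the same treatment differences were also read with the replicate number as a block, which takes this shared shift out of the error. The FGF2 differences keep their size, and at an adjusted p under 0.1 whatever the fold, 5 of 7 members passed, 4 higher and 1 lower, where 1 of 7 passed without the block. The share of all genes that passed in this way rose as well, from 11.8% without the block to 37.7% with it. The limma adjusted p with the block was 5.42e-06 for KLF2, 6.38e-04 for KLF4, 0.0304 for KLF9, 0.0630 for KLF6 and, for the lower KLF3, 0.0130. KLF7 (0.698) and KLF13 (0.692) did not pass. KLF6 passed on its brightest probe alone. Its second probe differed by 0.06 with FGF2 (limma adjusted p = 0.819 with the block), with 0.35 in replicate 1 and -0.24 in replicate 2. Of the other KLF4 probes the second passed and the third did not. The fit with the block has 2 residual degrees of freedom of its own, and its small p-values lean on the spread pooled over all genes.

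Between FGF2 and BMP4, 3 of 7 members passed with the block whatever the fold, all higher with FGF2, against 34.1% of all genes. These were KLF2 (adjusted p = 1.93e-06 by limma), KLF4 (1.70e-05) and KLF9 (6.51e-04). KLF9 differed by 1.004 in replicate 2 and 0.61 in replicate 1, and no FGF2 well overlapped a BMP4 well. The older-name probe of KLF9 passed likewise in both comparisons of FGF2, with adjusted p of 0.0116 against -GFs and 0.00264 against BMP4 by limma.

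With BMP4 the members stayed within 0.39 of their untreated values on the log2 scale. KLF4 differed by -0.39, KLF9 by -0.36, KLF3 by -0.35, KLF13 by -0.19 and KLF2 by -0.13, and KLF6 and KLF7 by 0.08 and 0.15. The limma adjusted p was 0.999 for all 7. At an unadjusted p under 0.05, 0 of 7 members passed without the block, against 1.81% of all genes, 3 passed with it (KLF4, KLF9 and KLF3, lower in both replicates), against 7.02%, and 0 passed the methods' t-test. The methods' t-test is the unpaired test of the authors' general statistics, whereas limma with an adjusted p is what they name for the arrays. After adjustment no member passed with the block, where the smallest adjusted p was 0.597 by limma and 0.219% of all genes passed. The 95% interval with the block ran from -0.72 to -0.06 for KLF4 and from -0.44 to 0.18 for KLF2.

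**Figure D3:**
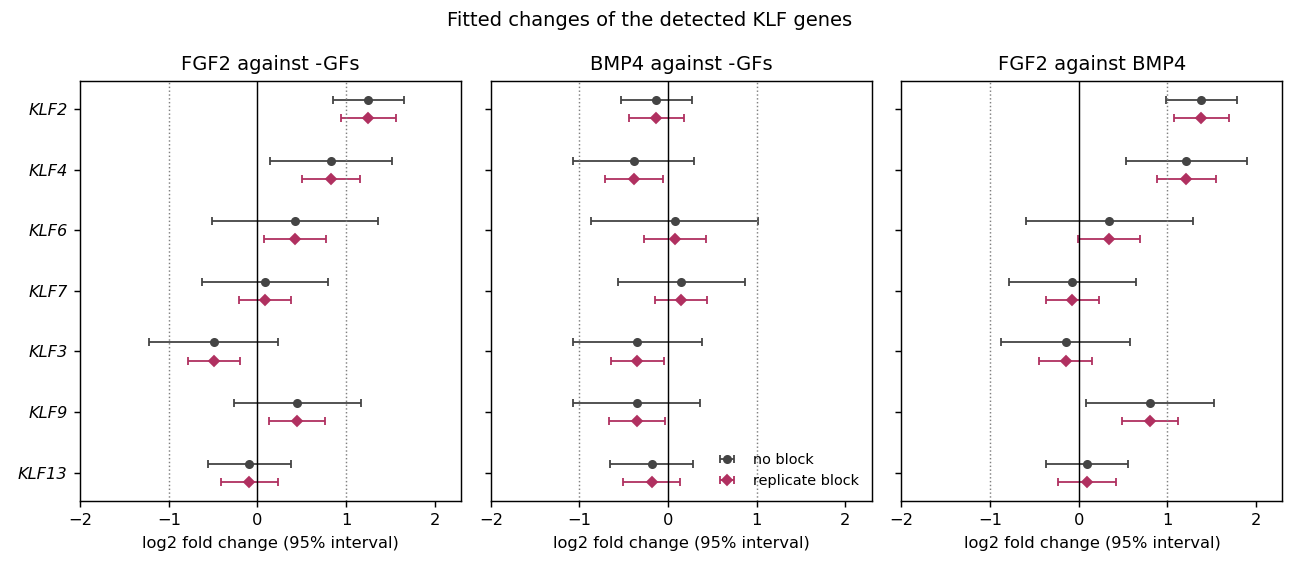
Log2 fold change with 95% interval (horizontal axis) of the 7 detected KLF genes (vertical axis) in the 3 comparisons, without (grey circles) and with (red diamonds) the replicate block; dotted lines mark the fold threshold of 1 in either direction. The points are the same with and without the block and the intervals are narrower with it; only KLF2 with FGF2 (1.25), and KLF2 (1.38) and KLF4 (1.22) between FGF2 and BMP4, lie past the dotted line.

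Over the 7 tested members the median log2 fold change with FGF2 was 0.42 against -0.02 over all genes tested, and the median size without sign was 0.45 against 0.24. With BMP4 the medians were -0.19 and 0.00215. These medians describe the members that passed the detection filter and not the 3 that were at background.

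**Figure D4:**
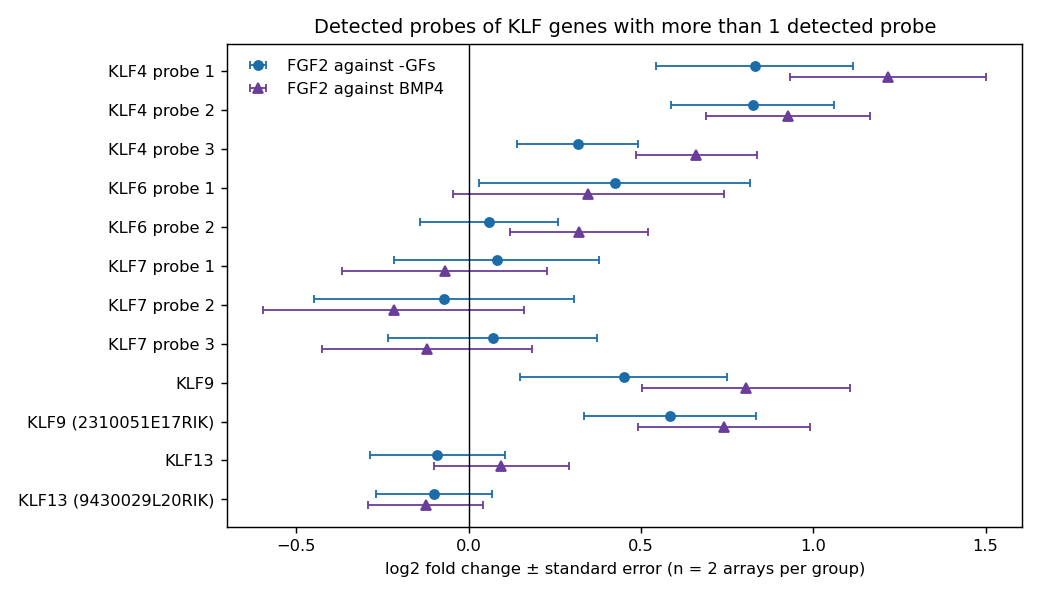
Log2 fold change with standard error (horizontal axis) of each detected probe of the KLF genes with more than 1 such probe (vertical axis), FGF2 against -GFs (circles) and against BMP4 (triangles), 2 arrays per group; older names of the array are in brackets. The first and second KLF4 probes and both KLF9 probes lie to the right of 0 in both comparisons, the third KLF4 probe passed the filter through the FGF2 arrays alone and was at background with BMP4, and the KLF7 and KLF13 probes lie between -0.22 and 0.09.

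The rest of the family was mostly at background. Of 16 other KLF and SP factors on the array, 6 passed the detection filter and none was called with FGF2 or BMP4. KLF16, a further SIN3A-binding member, was higher with FGF2 by 0.76 (SE 0.177; limma adjusted p = 0.0567), short of the fold threshold. SP3, which binds GC boxes, differed by -0.28, and KLF12, a repressor, by 0.26, and KLF12 passed the filter through the FGF2 arrays alone and was undetected on the other 4. The median of these 6 was -0.05.

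Among 18 genes known to act upstream of KLF factors or to bind or degrade them, 16 were on the array, 13 were tested and none was called. MAP2K5, the MEK5 kinase of the cascade above KLF2, differed by -0.52 with FGF2 (SE 0.146; limma adjusted p = 0.0912), while MAPK7, its substrate ERK5, was undetected on all 6 arrays. WWP1, a ubiquitin ligase that targets KLF2 and KLF5, differed by 0.66 (SE 0.501; limma adjusted p = 0.483 without and 0.00576 with the block). FBXW7, which marks KLF2 and KLF5 for degradation, differed by 0.43. The median of the 13 was -0.09, and with the block 5 of them passed the adjusted p, 3 higher and 2 lower, close to the 37.7% of all genes.

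Of 17 genes known as KLF targets or as partners in adipocyte differentiation, 14 were tested and 2 were called with FGF2, both higher, against 3.53% of all genes called. The list was chosen with earlier results of these data known, so this count is not a test of KLF targets. THBD, the anticoagulant receptor thrombomodulin that KLF2 induces in endothelium, rose by 1.81 (SE 0.259), from a mean of 8.29 to 10.10 on the log2 scale (limma adjusted p = 0.0158). TGFB1, whose promoter KLF6 is known to activate, rose by 1.14 (SE 0.198; limma adjusted p = 0.0258). Under the fold threshold but past the adjusted p were ODC1 (0.73; 0.0626 by limma) and CCND1 (0.71; 0.0737), while PPARG, the receptor that drives adipocyte differentiation, differed by 0.21 (0.622). With the block 8 of the 14 passed, 4 higher and 4 lower, against 37.7% of all genes, none was called with BMP4, and the median with FGF2 was 0.24. A shared direction with KLF2 or KLF6 in the same 6 arrays does not show that the factor acted on the gene.

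**Figure D5:**
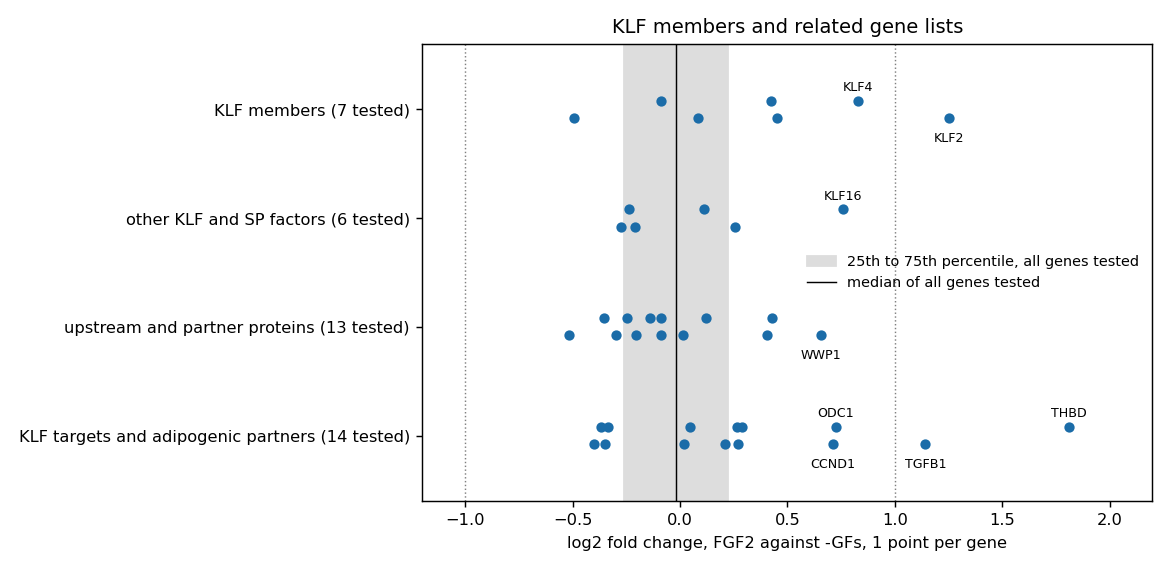
Log2 fold change between FGF2 and -GFs (horizontal axis), 1 point per gene, for the tested KLF genes and the 3 lists of related genes (vertical axis), with the interquartile range of all genes tested in grey, their median as a line and the fold threshold dotted; genes further than 0.6 from 0 are named. KLF2, THBD at 1.81 and TGFB1 at 1.14 lie past the threshold, and the upstream and partner proteins have a median of -0.09.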

How the data were processed

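RNA of 6 wells of PA6 cells was hybridised to 6 arrays. The authors deposited non-normalised probe intensity with detection p-values, exported from GenomeStudio 2011.01 per the labels. They also describe cubic spline normalisation, which was re-implemented here on 452 quantiles per array and followed by log2. The 6 leftover lines of the table that hold no probe were dropped, and 9 unnamed columns, filled on 2045 lines, were not used. Probes were kept where both arrays of some group detected them (p under 0.05), the probe with the largest mean stood for a gene, and limma 3.58.1 in R 4.3.3 was fitted to 3 groups (3 residual degrees of freedom, 2 with the replicate block). Replicate numbers pair the wells per the labels, and the deviations of same-numbered arrays from their group means correlated across genes at 0.602, 0.741 and 0.579. The labels call the replicates biological and do not say how they were separated, so the p-values measure only the spread between these wells. The number of arrays limits the precision.

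The KLF genes, the gene lists and the markers were chosen with earlier results of these data known. Text names every KLF gene, each list member called against -GFs or otherwise the 3 with the largest change with FGF2, and markers that define a type; MAPK7, PPARG, ODC1, CCND1 and the detected markers of other cell types were named after their values were seen. Promoter windows are RefSeq's on GRCm38.p6. Alternatives were quantile, neqc and median scaling, other detection filters, other rules for probes, the replicate block, eBayes with trend and robust options, leaving out each array, no fold threshold and the methods' t-test. The fits were tested on simulated data with independent arrays and with changes larger than those of the KLF genes. The simulated arrays carried no shared replicate shift. They therefore do not check how the block handles such a shift, or changes of the size seen here.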

Additional observations from a re-analysis of the deposited data

How the results depend on the processing

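Of 336 alternative values for single genes, 307 kept direction and side of the threshold, 8 lost a call and 21 turned direction; none of the turned values was called. With FGF2 the number of called members was 1, and 0 to 1 when 1 array was left out, 0 by the methods' t-test after Benjamini-Hochberg, 1 with the replicate block, and 5 with the replicate block whatever the fold. The added settings, the replicate block without a fold threshold among them, were chosen after seeing the data. Between FGF2 and BMP4 it was 2, and 1 with median scaling, 1 with the mean of a gene's probes, 0 to 2 when 1 array was left out, and by the methods' t-test 1 unadjusted and 0 after adjustment. With BMP4 it was 0 under every alternative listed. The cause was not tested. Pairing the wells by the replicate block changed no other call under the fold threshold.

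Median scaling gave -0.011 for KLF7 with FGF2 and -0.012 for KLF6 with BMP4, and the mean of the probes gave -0.093 for KLF6 with BMP4. Leaving out 1 array gave, with FGF2, 0.42 to 1.23 for KLF4, 0.08 to 0.82 for KLF9, -0.77 to -0.21 for KLF3, -0.16 to 1.02 for KLF6, -0.23 to 0.39 for KLF7 and -0.32 to 0.13 for KLF13. With BMP4 it gave -0.30 to 0.036 for KLF2, -0.71 to 0.017 for KLF3, -0.51 to 0.67 for KLF6, -0.17 to 0.47 for KLF7, -0.72 to 0.013 for KLF9 and -0.42 to 0.040 for KLF13. Between FGF2 and BMP4 it gave -0.51 to 0.21 for KLF3, -0.39 to 0.25 for KLF7 and -0.0094 to 0.20 for KLF13. Where a group is left with 1 array, that array is assumed to vary like the other groups. Probes near background, such as the third of KLF4, understate a fold. With 2 wells per group, the direction of KLF6, KLF7 and KLF13 with FGF2 is unsettled. The same holds with BMP4 for KLF2, KLF3, KLF6, KLF7, KLF9 and KLF13, and between FGF2 and BMP4 for KLF3, KLF7 and KLF13.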
